A study of Mus musculus with 13 samples.

Results

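Oxidative phosphorylation is the last stage of aerobic energy production, and most of its protein subunits are made from genes of the nucleus. The genes described here were every symbol listed in all 13 count tables that starts with Nduf, Uqcr, Atp5 or Cox4 to Cox8, or that is Sdha, Sdhb, Sdhc, Sdhd or Cycs, without pseudogene symbols. The rule found 93 of the 22682 symbols shared by the tables: 36 of complex I, 7 complex I assembly factors, 4 of complex II, 8 of complex III, cytochrome c, 20 of complex IV and 15 of complex V. The other 2, Atp5s and Atp5sl, carry the prefix but are not subunits of the synthase. The rule used no expression value. The libraries are translating ribosome affinity purification sequencing (TRAP-seq) of the medial habenula of adult mice older than 8 weeks, in which ribosomes tagged with GFP are pulled down together with the mRNA they carry. All 3 groups carried the Chat-TRAP transgene, line DW167, which tags ribosomes under the control of the choline acetyltransferase gene, Chat. The groups were 6 immunopurified (IP) libraries with this transgene alone, called wild type (WT) here, 6 IP libraries of Gpr151-KO::Chat-TRAP DW167 mice, which also carry a knockout (KO) of the habenular receptor gene Gpr151, and 1 library of the whole WT homogenate, the input. Each library pooled 4 mice, except 852 and 855, which pooled 3. The labels give no treatment, but the names of the deposited tables carry the word saline for the 10 IP libraries other than 682 and 683, and both saccharin and saline for the input, so whether the libraries were alike in treatment is not known. The tag is restricted to Chat-expressing cells, so the IP libraries are not designed to describe other cells. They still carried counts on markers of other cells, in amounts that differed between libraries and are given below. The input has no replicate.

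The respiratory chain passes electrons from NADH through complex I, or from succinate through complex II, to ubiquinone and then to complex III. Cytochrome c carries them on to complex IV, which reduces oxygen, and the proton gradient built on the way drives ATP synthesis at complex V. Complex II is made wholly from nuclear genes, while the others, cytochrome c aside, join nuclear with mitochondrially encoded subunits. Neurons depend on this pathway to fuel ion pumping and transmitter release, and medial habenula cholinergic neurons are known for spontaneous firing.

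Many of these genes share a promoter element bound by nuclear respiratory factor 1 (NRF1), an activator of nuclear genes for mitochondrial proteins. RefSeq promoters (GRCm38.p6, 250 bases before to 50 after each start) were found for 74 of the 93 genes. The core NRF1 motif GCGCANGCG, searched on both strands like the others, occurred in 23 of the 74 (31.1%), against 9.96% of all 16452 genes of the tables with such a promoter. The ETS motif CCGGAAGT occurred in 5 (6.76%, against 5.80%), the ERR motif TCAAGGTCA in 2 (2.70%, against 0.346%) and the YY1 motif AAGATGGCG in 7 (9.46%, against 2.24%). Matches of different motifs overlapped in none of the 74, and a match is a description of letters, not a measured site. Stretches of 4 promoters, 5′ to 3′ on the gene's strand with the letters of every NRF1 match in capitals, show how the matches lie in genes of complexes I, II, IV and V. They belong to Sdha (chr13:74350241-74350350, minus strand), Cox6a1 (chr5:115349055-115349132, minus strand), Atp5k (chr5:108434428-108434461, minus strand) and Ndufb4 (chr16:37654370-37654571, minus strand).
Sdha: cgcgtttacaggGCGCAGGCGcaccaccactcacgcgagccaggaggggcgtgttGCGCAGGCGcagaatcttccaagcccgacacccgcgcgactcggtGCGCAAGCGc
Cox6a1: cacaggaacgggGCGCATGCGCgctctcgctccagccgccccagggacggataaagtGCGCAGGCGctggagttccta
Atp5k: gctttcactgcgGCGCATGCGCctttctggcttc
Ndufb4: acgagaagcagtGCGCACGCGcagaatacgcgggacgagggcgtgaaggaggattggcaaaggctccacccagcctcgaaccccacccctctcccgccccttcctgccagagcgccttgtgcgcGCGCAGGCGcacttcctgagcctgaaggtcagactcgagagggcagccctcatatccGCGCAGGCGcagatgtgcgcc
Sdha, Ndufb4 and Cox6a1 each held 3 matches in these stretches, counting both strands, and Atp5k held 2. In Atp5k, and in the first run of capitals in Cox6a1, a match on each strand overlaps the other, so 1 run holds both. The 4 genes did not move alike: in the WT IP libraries Sdha ranged from 408 to 661 CPM (counts scaled to a common library total, defined with the libraries) and was highest in library 1091, in which Cox6a1, Atp5k and Ndufb4 were at their lowest, at 283, 42.7 and 10.1 CPM.

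The IP tables held 28375912 to 64388596 gene counts and that of the input held 54701790. Gpr151 itself ran from 382 to 589 CPM in the WT IP libraries, from 121 to 212 in the KO IP libraries and stood at 66.2 in the input, so counts on this gene remained in the knockout but no KO library reached a WT one. Chat was at 69.7 to 184 CPM in the IP libraries against 14.2 in the input. CPM here are counts per 1000000 on the 22682 shared symbols, since mitochondrially encoded genes (15.04% of the input's gene counts) are listed only in the input table and Rn45s, a ribosomal RNA precursor, (2.25% to 12.6%) only in the IP tables. Markers of astrocytes, oligodendrocytes and their precursors, microglia and endothelium, 39 in all, summed to 361 to 1858 CPM in the WT IP libraries, 400 to 3424 in the KO IP libraries and 5677 in the input. Of these 39, Aif1 and the endothelial Cldn5, Ly6c1 and Slco1a4 were at 0 in at least 1 IP library, and none was at 0 in the input. Libraries 1091 (WT), 1099 (KO) and 1102 (KO) had the most of these markers. The same 3 were lowest in a short-minus-long score, the mean log2 CPM of 293 other genes with transcripts under 800 bases minus that of 4199 genes of 2000 to 4000 bases: -1.05, -1.07 and -0.69, against -0.32 to 0.05 in the other 9 IP libraries and -0.53 in the input. Libraries 682, 683, 852 and 855, the earlier ones by number, and the 8 later ones also differ in their tables, which list 32532 and 24454 symbols (37328 in the input). Fewer cells of a type and less RNA per cell cannot be told apart in such pooled libraries.

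As a whole, the 93 genes took 1.91% of the shared counts in the WT IP libraries. Their summed level was 23592 CPM in library 682, 21203 in 852, 12710 in 1091, 18653 in 1092, 19302 in 1093 and 19046 in 1094, a mean of 19084 ± 3624 (SD, n = 6). The KO IP libraries gave 22778 CPM in 683, 21968 in 855, 12969 in 1099, 18580 in 1100, 18528 in 1101 and 15635 in 1102, a mean of 18410 ± 3717 (SD, n = 6). The single input library stood at 15706 CPM. Libraries 1091 and 1099 lay lowest in their groups, the 4 earlier libraries lay highest, and the ranges of the genotypes overlapped. Complex V took 38.6% of the summed WT IP level, complex I 24.7%, complex IV 20.2%, complex III 7.69% and complex II 6.38%. The sums of complexes II and V varied least in proportion, from 1025 to 1262 and from 6355 to 8245 CPM over the WT IP libraries, while complex IV ran from 1662 to 5949 CPM and complex I from 2549 to 6837. Single genes led these sums: Atp5b averaged 3311 of the 7178 CPM of complex V, and Sdha 566 of the 1190 CPM of complex II. Within complex V, Atp5e ran from 59.7 to 269 CPM in WT IP and Atp5a1 from 875 to 1213.

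**Figure D1:**
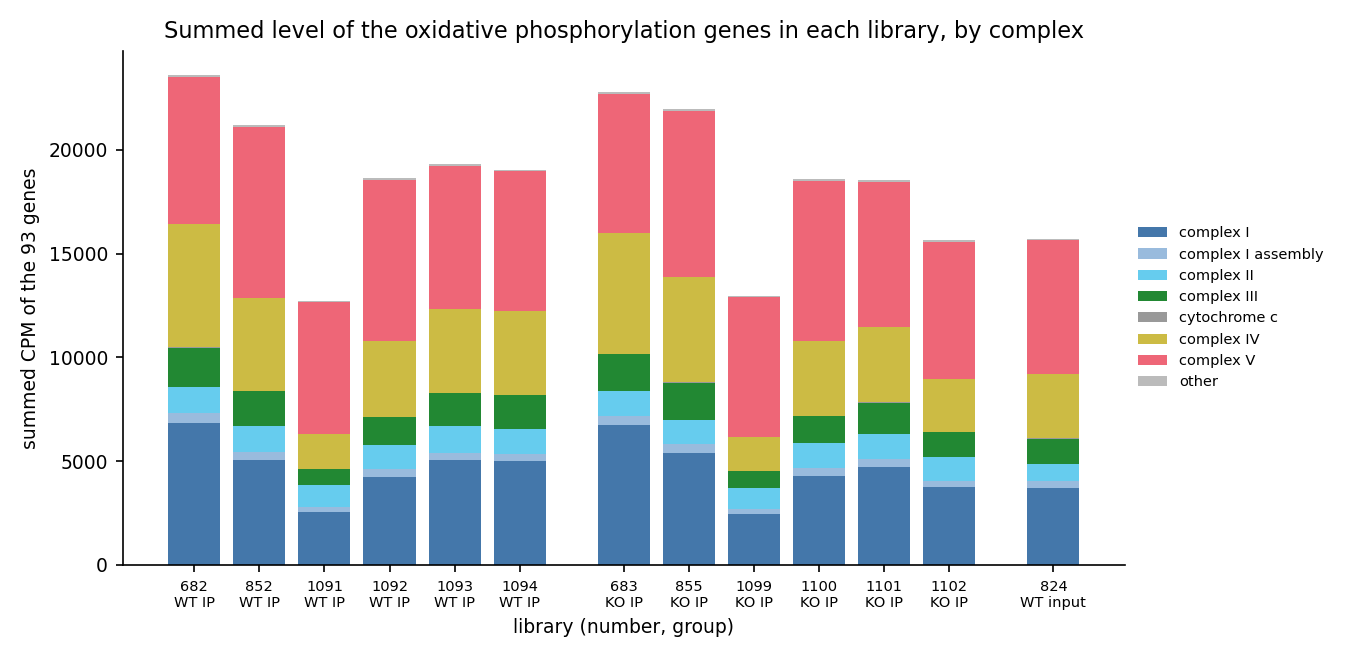
Summed CPM of the 93 genes (vertical axis) in each of the 13 libraries (horizontal axis: library number and group), stacked by complex; each bar is 1 library. Libraries 1091 and 1099 are lowest at 12710 and 12969 CPM, the earlier libraries 682, 683, 852 and 855 are highest, and the parts of complexes II and V change least.

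To compare genes with each other, CPM were divided by transcript length in kilobases (CPM per kb, WT IP mean ± SD, n = 6). Atp5b, the catalytic beta subunit of ATP synthase (chr10:128083273-128090391, GRCm38), was highest by this measure at 1728 ± 401 CPM per kb. Cox6a1, the ubiquitous form of a regulatory subunit of complex IV, followed at 1006 ± 322, then Cox4i1 at 914 ± 331, Cox8a at 895 ± 424 and Uqcrh, the hinge protein of complex III, at 825 ± 284 CPM per kb. The SDs of these 4 overlap, but they come from the same 6 libraries, so the overlap does not decide their order, which was not tested. Atp5a1, the alpha subunit that alternates with beta in the catalytic head, was at 417 ± 57.2 CPM per kb, below every WT IP library's level of Atp5b on this scale. The median over genes was 334 CPM per kb in complex V, 139 in complex I, 136 in complex II, 128 in complex III and 85.1 in complex IV. This order depends on the genes counted, since only 13 of the 20 complex IV genes reached a WT IP mean of 5 CPM. Medians were also taken over genes of at least 5 CPM with under 10% of their 50-base windows in transcripts of other genes. These were 552 in complex IV (6 genes), 454 in V (8), 144 in III (5), 136 in II (4) and 133 in I (22). Complex I assembly factors had a median of 25.9, and cytochrome c was at 5.49 ± 1.70 CPM per kb. The level of cytochrome c (Cycs) is uncertain, since 28.5% of its 50-base windows also occur in transcripts of other genes, 76 in all. Its level was also divided by a length of 3123 bases. The order of single genes depends on the length used. Divided instead by the merged length of all annotated exons of each gene, Atp5b was at 781 CPM per kb. That is below Cox6a1 at 818 and Cox8a at 795 on the same scale.

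Core subunits were well expressed in every IP library. Ndufs1, which holds iron-sulfur clusters in the NADH-oxidising arm of complex I (chr1:63143596-63176833), ranged from 77.3 to 151 CPM with a median of 116 in WT IP and from 69.4 to 184 with a median of 125 in KO IP. Ndufv1, the flavin-binding subunit that takes the electrons from NADH, ranged from 68.1 to 156 CPM (median 125) in WT IP and from 80.4 to 158 (median 114) in KO IP. Uqcrfs1, the Rieske iron-sulfur protein of complex III, kept to a narrow range of 120 to 166 CPM (median 128) in WT IP and 102 to 153 (median 125) in KO IP. Uqcrc1, a core protein of the same complex, ranged from 85.6 to 126 CPM in WT IP and from 79.2 to 124 in KO IP. For each of these 4 genes the ranges of the genotypes overlapped. Within complex I the extremes of the mean per transcript length were Ndufc1, a small accessory subunit, at 504 ± 206 CPM per kb, and Ndufab1, the mitochondrial acyl carrier protein, at 2.94 ± 1.77. Ndufc1 was divided by 315 bases. Divided by the merged length of all its annotated exons it was at 106 CPM per kb, below Ndufa1 at 338. Ndufab1 was divided by 3479 bases, and it read 14.6 to 21.7 CPM in the earlier IP libraries against 3.88 to 7.11 in the later ones. In those later libraries Ndufs5 lay lower still, at 0 to 0.0422 CPM.

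The 4 complex II genes did not vary together. Sdha, the flavoprotein that oxidises succinate, read 408, 560, 661, 581, 627 and 559 CPM in WT libraries 682, 852, 1091, 1092, 1093 and 1094. Sdhb, the iron-sulfur subunit, read 148, 101, 57.5, 78.9, 110 and 117 CPM in the same order. Sdhc, a membrane anchor, read 430, 348, 176, 289, 287 and 292 CPM. Library 1091 was thus highest for Sdha and lowest for Sdhb and Sdhc. The second anchor, Sdhd, was also lowest there, at 130 CPM against 212 to 270 in the other 5 WT libraries. In the KO libraries 683, 855, 1099, 1100, 1101 and 1102, Sdha read 375, 451, 651, 567, 612 and 676 CPM, while Sdhc read 432, 336, 160, 296, 290 and 209. Library 1099 thus held the lowest Sdhc and the second-highest Sdha of its group. Cycs, cytochrome c, ranged from 9.85 to 23.6 CPM (median 17.6) in WT IP, from 10.5 to 26.0 (median 20.6) in KO IP and stood at 13.9 in the input.

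Tissue isoforms separated by level. In complex IV, Cox4i1 averaged 681 ± 247 CPM in WT IP, and its low-oxygen and lung isoform Cox4i2 averaged 0.210 ± 0.145. Cox6a1 averaged 574 ± 184 CPM and Cox6a2, the heart and skeletal muscle isoform, 1.90 ± 1.20. Cox6b1 averaged 363 ± 132 and Cox6b2, the testis isoform, 10.1 ± 5.06. Cox7a2 averaged 341 ± 109, Cox7a2l, which binds supercomplexes, 82.6 ± 33.6, and the muscle isoform Cox7a1 1.07 ± 0.548. Cox7b averaged 370 ± 118 and Cox7b2 0.143 ± 0.104. Cox8a averaged 492 ± 233, while Cox8b, the muscle isoform, had 0 counts in every WT IP library and Cox8c had counts in library 1091 alone. Zero counts there allow at most 0.121 CPM, which is 3 counts in the shallowest library (counting error only). Both partners of the non-isoform pair Cox5a and Cox5b were present, at 223 ± 75.6 and 80.7 ± 36.3 CPM. Ndufa4, now known as a complex IV subunit, averaged 465 ± 160 and its paralogue Ndufa4l2 0.526 ± 0.422 CPM. In every pair with a muscle, testis or low-oxygen isoform, the lowest WT IP library of the ubiquitous form lay above the highest of the other form.

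Some levels are uncertain because other genes share their sequence. For 18 of the 93 genes at least 25% of the transcript's 50-base windows also occur in transcripts of other genes, and for 6 at least 50% (Atp5o, 1 of these, shares most with a second entry of its own name). Reads from such windows can be split or dropped in counting, and the part of this in the levels was not tested. The 3 genes for the same c subunit of the ATP synthase rotor differed in level and in shared windows. Atp5g3, with no shared window, averaged 458 ± 129 CPM in WT IP. Atp5g1 (chr11:96068852-96075670), with 66% of its windows shared, averaged 39.0 ± 12.3, and Atp5g2, with 87.4% shared, 0.547 ± 0.274. Atp5h, a stalk subunit with 50.5% shared, averaged 130 ± 64.4 CPM, so a high share did not always go with a low level. Ndufs5, a complex I subunit with 41.2% of its windows shared, read 7.002 to 11.0 CPM in the 4 earlier libraries and 14.3 in the input, but had 0 to 2 counts in each of the 8 later libraries. Atp5l, the g subunit of the synthase with 84.8% shared, went the other way, at 0.201 to 0.392 CPM in the earlier and 5.75 to 13.2 in the later libraries. No fold is given for Ndufs5, since the later libraries lie under the floor of 3 counts.

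Against the input, most of the 93 genes were neither enriched nor depleted in the wild-type IP libraries. The ratio was log2((IP CPM + 1)/(input CPM + 1)), and a gene counted as enriched or depleted when all 6 WT IP libraries differed from the input by at least 2 times in the same direction. This rule is not a test, since there is 1 input library. Of the 86 genes with at least 5 CPM in the input or the WT IP mean, 0 were enriched, where 4.71% of 11434 genes were, and 2 were depleted, where 11.1% were. All 6 libraries lay above the input for 7 genes (24.0% of all genes) and below it for 9 (35.1%). The median ratio over the 86 genes was 0.31, against -0.07 over all genes, but by library it was 0.73 in 682, 0.36 in 852, -0.58 in 1091, 0.15 in 1092, 0.37 in 1093 and 0.36 in 1094. Library 1091 was the only one of the 6 with a negative median. Scaling by the trimmed mean of M-values (TMM) moved the median of all genes from -0.07 to 0.12, and that of the 86 genes to 0.49. By complex the medians ran from 0.49 in complex III and 0.46 in complex II through 0.42 in complex IV and 0.34 in complex I to 0.14 in complex V, and 0.00 in the assembly factors.

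Cox6a2 lay furthest below the input. It read 44.9 CPM in the input and 3.96, 0.523, 1.85, 1.25, 1.33 and 2.49 in WT IP libraries 682, 852, 1091, 1092, 1093 and 1094, so every IP library lay far below the input, as did the KO IP libraries at 1.16 to 3.71. The median ratio was -4.15. An edgeR fit that assumes the single input varies like the IP libraries, and that cannot check this, gave a log2 difference of -4.40. Under that assumption it called 1 of 89 genes lower, Cox6a2, and 0 higher, against 9.11% and 8.44% of all genes. Pvalb, a marker of fast-spiking inhibitory neurons, moved in the same way, from 43.4 CPM in the input to 0.161 to 2.66 in WT IP. The 8 other-neuron markers summed to 1788 CPM in the input and 86.3 to 464 in WT IP, and their part in the Cox6a2 ratio was not tested.

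Atp5g1 was the second depleted gene, at 111 CPM in the input and 32.7, 52.4, 20.6, 52.9, 36.2 and 39.0 in the WT IP libraries. All 6 lay below it, with a median ratio of -1.54, but the ratio fell short of the 2-fold rule in some libraries under other scalings. Other genes share 66% of the windows of Atp5g1, and the input lists 37328 symbols against 32532 or 24454 for the IP libraries. The part of either in the ratio was not tested. Outside the 93 genes, Eno1 read 128 CPM in the input and averaged 0.669 in WT IP, while Cox20 read 0.317 and averaged 26.9. Sdhc had the highest median, 1.02, with 143 CPM in the input and 176 to 430 in WT IP. Sdha was also above its input level of 373 CPM in all 6 libraries, with a median ratio of 0.61. Ndufa10, an accessory subunit of complex I, lay below the input by a like amount in every library, from -0.36 to -0.61. Uqcrc2, a core protein of complex III, lay below it by -0.11 to -0.32.

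**Figure D2:**
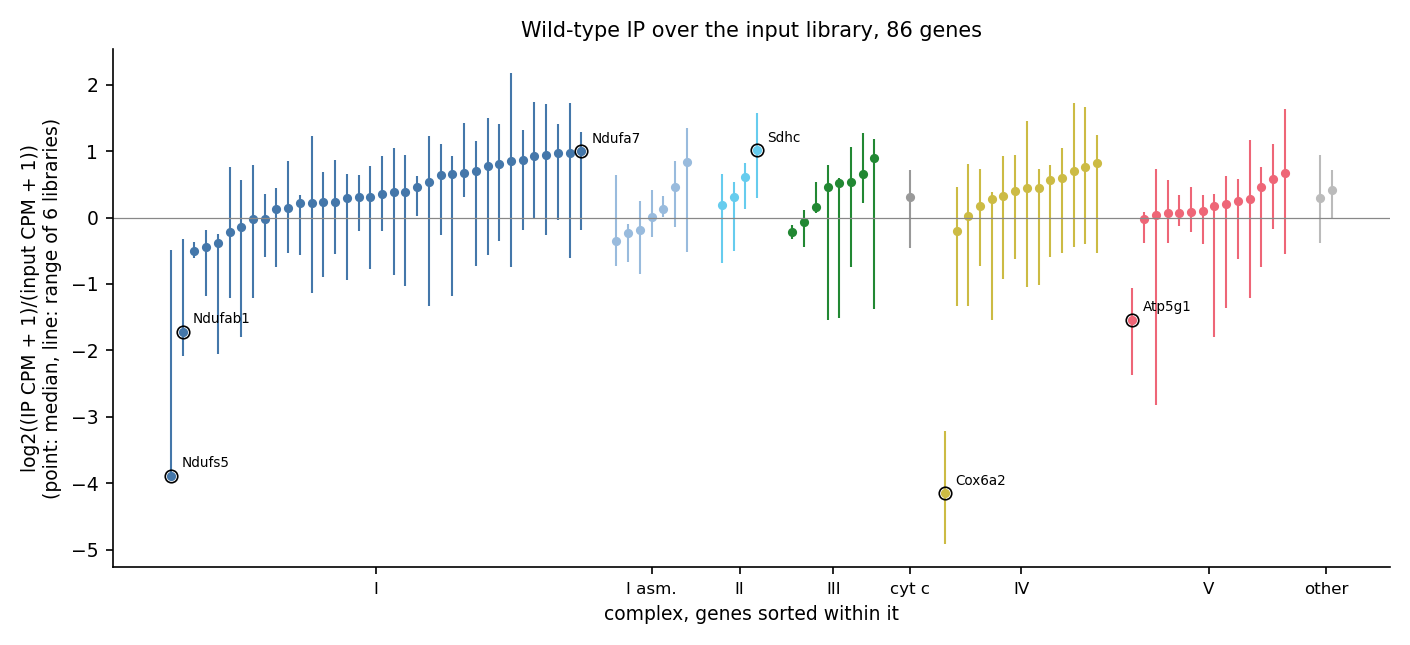
Log2 ratio of WT IP over input, with 1 added to both CPM (vertical axis), for 86 genes ordered within each complex (horizontal axis); points are medians and lines the range of the 6 WT IP libraries. Cox6a2 and Atp5g1 lie below -1 in every library, library 1091 is the low end of 74 of the 86 lines, and the Ndufs5 line spans -0.48 to -3.94.

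How the genes varied with the amount of non-neuronal RNA was asked with a slope: the change in log2 level per unit of the mean log2 CPM of the 39 markers, fitted with library set and genotype in edgeR over the 12 IP libraries. Of the 93 genes, 88 had counts enough to be tested. The slope was called lower for 28 of the 88 and higher for 2 by Benjamini-Hochberg adjusted p under 0.05, where 9.86% and 16.7% of 14317 genes were called. DESeq2 called 45 lower and 2 higher (14.2% and 19.0% of all genes). The median slope was -0.33, against -0.01 over all genes. The 28 lower genes were 11 of complex I, 2 assembly factors, 2 of complex II, 2 of complex III, 7 of complex IV and 4 of complex V.

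Cox6b1, an intermembrane-space subunit of complex IV (chr7:30616861-30626151), read 556, 395, 152, 411, 327 and 335 CPM in the WT libraries 682, 852, 1091, 1092, 1093 and 1094. It read 568, 448, 174, 372, 290 and 193 CPM in the KO libraries 683, 855, 1099, 1100, 1101 and 1102. It was lowest in the marker-rich libraries 1091, 1099 and 1102, and its slope was -0.51 (SE 0.0872, edgeR adjusted p = 0.00139). Cox6a1 (chr5:115345642-115348981) had the same 3 libraries lowest, at 283, 267 and 311 CPM against 468 to 837 in the other 9, with a slope of -0.47 (SE 0.0833, adjusted p = 0.00175). The slope of Atp5g1 was -0.50 (SE 0.0933, adjusted p = 0.00247), that of Ndufb6 -0.42 (SE 0.0821) and that of Ndufa13 -0.51 (SE 0.102). The complex II genes split again, with Sdhc at -0.31 (adjusted p = 0.00983) and Sdhd at -0.30 (adjusted p = 0.0211), and Sdha at 0.13 (adjusted p = 0.133).

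The 2 genes with a higher call were Ndufs1 and Cox6a2. Ndufs1 read 151, 178 and 184 CPM in libraries 1091, 1099 and 1102, and 69.4 to 143 in the other 9, with a slope of 0.33 (SE 0.0871, edgeR adjusted p = 0.0149). Cox6a2 had a slope of 0.68 (SE 0.198, adjusted p = 0.0236) at levels of 0.523 to 3.96 CPM. Neither call held without KO library 1099 (adjusted p = 0.0625 for Ndufs1 and 0.0766 for Cox6a2) or without KO library 1100 (0.0728 and 0.116). That of Cox6a2 was also lost without library 682, 683 or 1102 (0.0585, 0.0551 and 0.0521). Among other core subunits, the slopes of Atp5b (0.01), Uqcrfs1 (-0.02), Ndufv1 (0.05) and Atp5a1 (0.14) did not pass the test in this fit. Atp5b read 3813 CPM in library 1091 and 4176 in 1099, inside its range of 2391 to 4229 over all 12.

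Slopes were lower in genes with shorter transcripts. The slope was called lower for 10 of 23 tested genes under 600 bases and for 9 of 29 of 600 to under 1000 bases. It was called lower for 5 of 16 of 1000 to under 1500 bases and for 4 of 20 of 1500 bases or more. Among other genes the shares called lower were 14.5%, 24.8%, 17.8% and 7.83% in the same order, so their shortest class was not the most often called. The median length was 763 bases over the 93 genes, and the libraries were made from amplified cDNA that was cut into fragments before adapters were joined. Genes under 600 bases had a median slope of -0.43, those of 600 to under 1000 bases -0.36, those of 1000 to under 1500 bases -0.18 and those of 1500 bases or more -0.15. Other genes of the same lengths had medians of -0.32, -0.28, -0.18 and 0.03. Across the 88 genes the slope correlated with log2 length at r = 0.529 (Spearman rho = 0.680), and across 14127 other genes at r = 0.329 (rho = 0.401). These are correlations over genes of the same libraries, which are not independent replicates.

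The libraries differed by length class in the same way. In library 1091 the median deviation from a gene's mean over the IP libraries was -1.24 (log2) for the 23 tested genes under 600 bases and -0.33 for the 20 genes of 1500 bases or more. In library 1099 the values were -1.22 and -0.47, and in library 682 they were 0.77 and 0.15. Other genes had -0.74 and 0.05 in 1091, -0.84 and 0.02 in 1099 and 0.56 and 0.00 in 682. Short genes of either kind thus stood low in 1091 and 1099 and high in 682, and the long genes of the pathway deviated in the same direction by less.

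**Figure D3:**
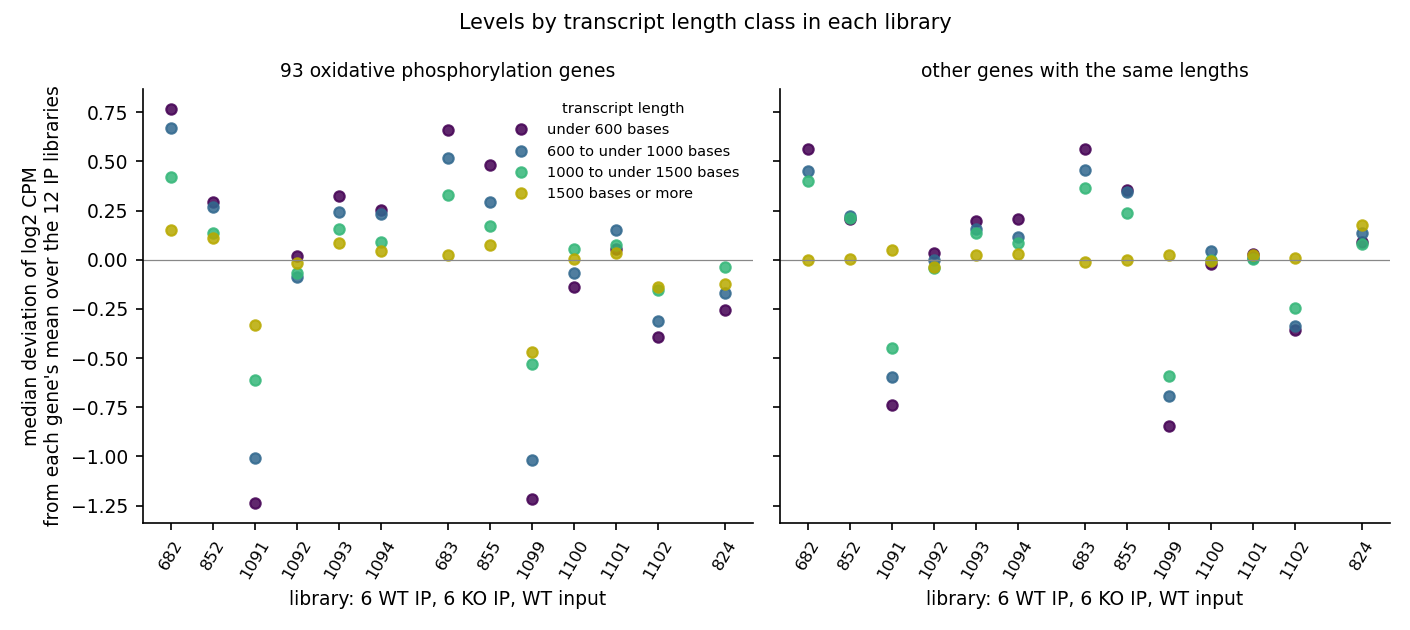
Median deviation of log2 CPM from each gene's mean over the 12 IP libraries (vertical axis) in each library (horizontal axis), for the 88 tested of the 93 genes (left) and other tested genes (right). Colours are transcript length classes and each point is a median over genes. In libraries 1091 and 1099 the genes under 600 bases lie at -1.24 and -1.22 on the left and at -0.74 and -0.84 on the right, below the longer classes.

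Over the 8 later libraries, the mean log2 CPM of the 84 genes with at least 5 CPM followed the short-minus-long score with r = 0.985 (rho = 0.929), and with r = 0.919 without 1091 and 1099. Its correlation with the non-neuronal score was r = -0.733 (rho = -0.619), and -0.673 without the 2 libraries farthest from the median score, 1092 and 1099. The 2 scores were themselves correlated at r = -0.830, and all these values share the same libraries and totals. With the short-minus-long score added to the fit, 4 genes were called lower and 15 higher on the non-neuronal score (5.94% and 8.59% of all genes), and the median slope turned to 0.14. The 4 lower genes were Atp5b, at -0.38 (adjusted p = 0.0335), Atp5j, Atp5s and Ndufaf3, and the 15 higher ones included Ndufv1, Uqcrc1, Cox4i1 and Cox6a2 but not Ndufs1 (adjusted p = 0.298). Without libraries 1091 and 1099, 9 were called lower and 4 higher (5.71% and 10.1%), with a median of -0.01. Cox6b1, Cox6a1, Atp5g1, Ndufb6 and Ndufa13 were among the 9, with slopes of -0.39, -0.36, -0.45, -0.28 and -0.30. None of the 5 passed with the added score, where Cox6b1 had -0.25 (adjusted p = 0.0815) and Atp5g1 -0.34 (adjusted p = 0.0855). Cox6a2 passed in both, at 1.05 (adjusted p = 0.0328) and 0.87 (adjusted p = 0.0427).

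**Figure D4:**
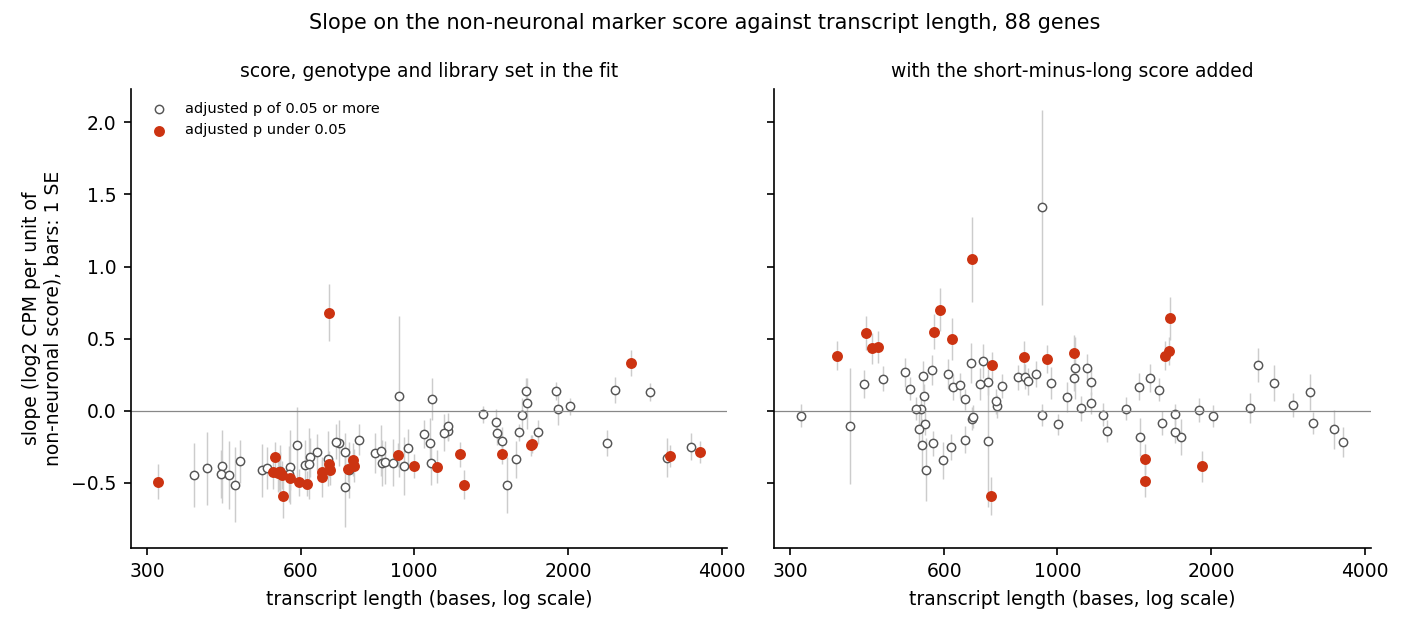
Slope of each gene's log2 level on the non-neuronal score (vertical axis, bars 1 SE) against its transcript length (horizontal log axis) for 88 genes, fitted without (left) and with (right) the short-minus-long score; red points have an adjusted p under 0.05. On the left 28 red points lie below 0 and 2 above, and on the right 4 lie below and 15 above.

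No oxidative phosphorylation gene passed the test between knockout and wild type in the 12 IP libraries. In edgeR, 0 of the 88 tested genes passed an adjusted p of 0.05, where 2 of 14317 genes (0.014%) did, and 0 had an unadjusted p under 0.05 (3.06% of all genes). DESeq2 also called 0 (0.0838% of all genes). For 0 of 88 genes did the KO libraries all lie to the same side of the WT libraries (0.135% of all genes). The 95% interval of the difference lay within 2-fold in either direction for 83 of the 88 genes (94.3%, against 77.9% of all genes). It lay within 1.5-fold for 43 of the 88, so smaller differences are not resolved.

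Most fitted differences were slightly negative. They were below 0 for 71 of the 88 genes (80.7%, against 49.6% of all genes), with a median log2 difference of -0.10 (KO minus WT), against 0.00 over all genes. By length class the medians were -0.15, -0.11, -0.05 and 0.01 from the shortest to the longest class, against -0.14, -0.08, -0.07 and 0.02 in other genes. The median was 0.02 with the short-minus-long score in the fit, 0.06 with the non-neuronal score and 0.01 without KO library 1099. It was -0.22 without WT library 1091. The 4 earlier libraries gave 0.03 and the 8 later ones -0.18. By complex the medians were -0.10 in complex I, -0.05 in II, -0.13 in III, -0.13 in IV and -0.11 in V.

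Ndufaf6, a complex I assembly factor, had the smallest p: 14.6, 6.96, 5.18, 5.01, 7.73 and 6.66 CPM in WT libraries 682, 852, 1091, 1092, 1093 and 1094, and 8.29, 3.13, 4.89, 5.07, 6.71 and 5.82 in KO libraries 683, 855, 1099, 1100, 1101 and 1102. WT library 682 stood above the other 11, and the groups overlapped. The difference was -0.38 (SE 0.199, edgeR adjusted p = 0.999). Cox6a2 differed by 0.53 (SE 0.375), Cox6b2 by -0.37 (SE 0.306), Cox7c, a small complex IV subunit with 53.0% of its windows shared, by -0.25 (SE 0.233), Cycs by 0.19 (SE 0.217) and Ndufa9, a complex I accessory subunit, by 0.09 (SE 0.124). The interval of each of these 6 held 0. For some core subunits the intervals were narrow: -0.25 to 0.35 for Atp5a1, -0.28 to 0.42 for Atp5b, -0.26 to 0.21 for Sdha and -0.26 to 0.11 for Uqcrfs1. Those of Ndufs1, Ndufv1 and Uqcrc1 are not listed here.

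**Figure D5:**
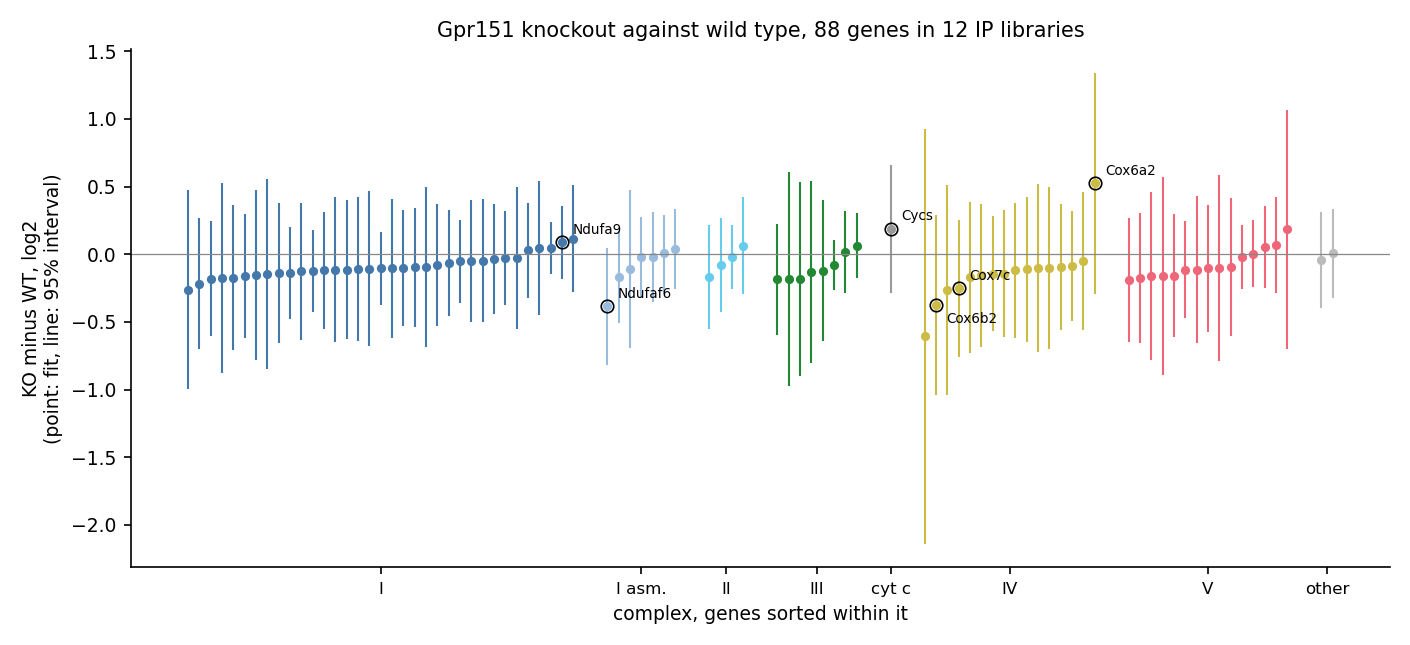
Fitted log2 difference KO minus WT (vertical axis) with its 95% interval for 88 genes ordered within each complex (horizontal axis); circled genes are those with the smallest p in each direction. Every line crosses 0, 71 of the 88 points lie below it, and the widest intervals belong to genes at low levels.

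Whether the genotype difference differed between the 4 earlier and the 8 later libraries was tested as an interaction. edgeR called 0 of the 88 genes, as it called 0 of 14317 genes (0.0%), and DESeq2 called 0 of the 88 (0.014% of all genes). At an unadjusted p under 0.05 there was 1 gene, Ndufaf6, with -0.89 (SE 0.349, edgeR adjusted p = 1), where 2.27% of all genes were. The levels themselves differed between the sets: for 21 of the 88 genes all 4 earlier libraries lay above all 8 later ones (8.52% of all genes), and for 1, Atp5l, all lay below (5.58%). Cox8a, the smallest subunit of complex IV, read 617 to 899 CPM in the earlier and 178 to 441 in the later libraries. Cox6a1 read 662 to 837 in the earlier and 267 to 615 in the later ones. The tables of the 2 sets also list different numbers of symbols, and the part of this in the levels was not tested.

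Other genes of energy metabolism, from lists of neighbouring pathways, showed no genotype call in edgeR either: 0 of 25 tested chain and assembly genes, 0 of 17 tricarboxylic acid cycle genes, 0 of 15 glycolysis genes, 0 of 6 carriers and porins and 0 of 12 regulators, with 0 at an unadjusted p under 0.05. On the non-neuronal score, 6 of the 25 chain and assembly genes were called lower and 1 higher, among them the complex IV assembly factors Cox20 (-0.48) and Surf1 (-0.27). Of the tricarboxylic acid cycle genes 0 were lower and 5 higher, among them Cs, citrate synthase, at 0.30. Of the glycolysis genes 0 were lower and 6 higher, with Pfkm, the muscle-type phosphofructokinase, at 0.83. The carriers and porins had 0 calls and the regulators 0 lower and 1 higher. Over all genes, 9.86% were called lower and 16.7% higher in this fit. The median transcript length was 1520 bases in the chain and assembly list, 2544 in the cycle and 2027 in glycolysis. Cyc1, the cytochrome c1 subunit of complex III that the prefix rule leaves out, averaged 194 ± 32.3 CPM in WT IP (n = 6) against 155 in the input, with a slope of -0.14 that did not pass. The genes outside the list whose log2 CPM followed the mean of the 84 expressed genes most closely over the 8 later libraries were Ubl5 (r = 0.998), Naa38, Mrps25, Fkbp1a and 1810043H04Rik (r = 0.997 each), out of 10312 ranked. Their transcript lengths were 2114, 671, 6073, 1658 and 781 bases in the same order, so not all were short.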

How the data were processed

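Per the labels, medial habenula RNA was amplified (Ovation V2), fragmented as cDNA and sequenced. The deposited tables hold raw counts per gene symbol, made by the authors with STAR 2.3.0e and HTSeq on mm10, per the submitters' processing notes, which do not say whether counting used strand. Rows that name no gene were left out of totals and tests: not uniquely aligned (25.2% to 53.2% of each table), no feature (9.44% to 16.6%) and ambiguous (0.581% to 3.98%). The members and lists were chosen with earlier results of these data known. Replicates are separate pools of mice.

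CPM used the 22682 symbols of all 13 tables. Tests ran on symbols of the 12 IP tables after filterByExpr (minimum count 10, minimum total 15), leaving 14317 genes, with TMM scaling and edgeR 4.0.16 quasi-likelihood tests (limma 3.58.1, R 4.3.3), terms for 3 library sets (682 and 683, 852 and 855, the later 8), Benjamini-Hochberg over all genes. DESeq2 1.42.0 was an alternative. Scripts were tested on simulated data. Log2 CPM used a prior count of 2. Transcript lengths and shared windows came from GENCODE M21 (GRCm38), matched for all 93 genes. Promoters are RefSeq's. Floors cover counting error only. The intervals of fitted differences come from the edgeR quasi-likelihood fits and also cover the spread between libraries. Alternatives were other scalings, filters, scores, pseudocounts, library subsets and leaving out each library.

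Named genes were, by rule, the complex II genes, Cycs, isoform families, core subunits, the highest and lowest per complex, and the up to 5 per direction with the smallest p among those past each threshold (3 where none passed); Ndufs5, Atp5l and others were added after their values were seen.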

Additional observations from a re-analysis of the deposited data

Results flagged for a closer look

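Among 90 groups of 6 values examined for a value apart from the rest (the gap to its nearest neighbour over the whole range, past its 95% critical value), 3 stood out, and chance gives about 1 in 20 groups. Ndufaf6 read 14.6 CPM in WT library 682, against 5.01 to 7.73 in the other 5 WT IP libraries. Cox7c read 8.55 CPM in WT library 1091, against 19.6 to 24.0 in the others. The summed level of complex II was 997 CPM in KO library 1099, against 1148 to 1219 in the other KO IP libraries.

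The input table also lists the 13 mitochondrially encoded subunits, which the IP tables do not list, so they entered no comparison. They held 254794 counts, 0.466% of the input's gene counts, of which mt-Co1 had 89441 and mt-Cytb 53827, while mt-Co2, mt-Co3, mt-Atp6, mt-Atp8 and mt-Nd4l are listed at 0 and mt-Nd3 at 3. The mitochondrial ribosomal RNAs held 14.6%, and the 93 nuclear genes 1.27%.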

How the results depend on the processing

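No paired analysis of all the IP libraries was run because the labels carry no replicate numbers shared between genotypes. The names of the deposited tables do number the later libraries within both genotypes, but these numbers were not used. The library-set term of the genotype fits does hold 682 with 683 and 852 with 855, the 4 earlier libraries were fitted alone with it, and the count was 0 with it, without it and in those 4. The genotype count stayed at 0 under all 23 alternatives run, and the interaction count at 0 under all 14. In the 4 earlier libraries the genotype differences of Ndufa9 (-0.015), Cox6b2 (0.33) and Cox7c (0.038) reversed; none is called in any fit. The slope count, 30 in the main fit, was 47 with DESeq2, 19 with the short-minus-long score and 13 without libraries 1091 and 1099, both chosen after seeing the data. Leaving out 1 library gave 15 to 34 calls: 18 without WT replicate 3 (library 1091), 15 without KO replicate 3 (1099) and 18 without KO replicate 4 (1100), where the share of all genes called, 26.6% with every library, was 19.4%, 14.9% and 12.9%, with medians from -0.42 to -0.23. The median slope was -0.73 per unit of the habenula score with its sign turned, 0.14 with the short-minus-long score and -0.014 without 1091 and 1099. The count of genes beyond 2-fold of the input, 2, was 1 with TMM scaling, with totals without Rn45s and mitochondrially encoded genes, with totals of all gene rows and in edgeR, and 4 over the 4 later WT IP libraries; the gene lost was Atp5g1. The cause of these changes was not tested. Depth limits the genes under the floor of 3 counts, Ndufs5 in the later libraries among them, and 1 input library limits every ratio to it.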
